A study of Mus musculus with 24 samples.

Results

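Long-term hematopoietic stem cells (LT-HSC) of aged mice were compared with short-term hematopoietic stem cells (ST-HSC) of aged mice by bulk RNA-seq, with 4 libraries of each. These 8 libraries were chosen by their titles, which end in Old_LTHSC or Old_STHSC, out of the 24 libraries of the study. The marrow donors were male C57BL/6 mice, aged 107 weeks in the aged groups and 12 weeks in the young groups, and the labels name no transgene, deletion or drug. Cells with CD117, the stem cell factor receptor Kit, were enriched before the sort. LT-HSC were then sorted as CD150+CD48-Lin-Sca1+Kit+ cells, ST-HSC as CD150-CD48-Lin-Sca1+Kit+ cells, and multipotent progenitors (MPP) as CD150-CD48+Lin-Sca1+Kit+ cells. The 4 young LT-HSC and 4 young ST-HSC libraries are used below for the same difference at the other age, and all 24 libraries shared the estimate of the spread. The labels count 4 aged mice and tie no library to a mouse, so p-values measure the spread between libraries. Libraries are numbered 1 to 4 within a group in the order of their titles. Each library was made from sorted cells and not from single cells, so fewer cells of a type and less RNA per cell cannot be told apart.

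LT-HSC sit at the top of blood formation: they divide rarely and can rebuild all blood lineages for the life of a transplanted animal, while ST-HSC sustain blood formation for a limited time and are nearer to division and lineage choice. CD150, encoded by Slamf1, separates the populations. In aged mice the CD150 positive compartment is known to grow in number, to lean toward platelet and myeloid output, and to give less lymphoid output.

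The 8 libraries held 7307151 to 12890638 gene counts, and the 45S ribosomal RNA gene Rn45s took 5.64% to 10.4% of them. The first principal component of the 8 libraries held 69.5% of the variance and set every aged LT-HSC library (-49.9 to -32.3) apart from every aged ST-HSC library (36.6 to 45.6). Levels are CPM, counts scaled to library size and corrected by trimmed means (TMM), given as mean ± SD over 4 libraries. Differences are log2 of aged LT-HSC over aged ST-HSC, and a gene is called higher or lower where its Benjamini-Hochberg adjusted p from edgeR's quasi-likelihood test was below 0.05 over 14205 tested genes. A bare value in parentheses after levels is this log2 difference.

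The genes of the sort were looked at first. Slamf1, which encodes CD150, stood at 64.8, 88.4, 72.3 and 62.7 CPM in aged LT-HSC libraries 1 to 4 and at 0.0794, 0.648, 0.267 and 1.93 CPM in aged ST-HSC libraries 1 to 4. Every LT-HSC value lay above every ST-HSC value, as the labels of the sort give it, and the log2 difference was 6.61 (SE 0.55, adjusted p = 5.8e-09). Its size moved to 7.86 without aged ST-HSC library 4 and to 7.30 by limma-voom. Both populations were sorted as negative for CD48, yet Cd48 mRNA was at 0.178 ± 0.241 CPM in aged LT-HSC and 14.4 ± 1.57 in aged ST-HSC (log2 difference -6.26, adjusted p = 1.8e-08), and the groups did not overlap. Without aged LT-HSC library 3 the Cd48 difference was -7.35. Kit mRNA, the receptor that both sorts required, was at 1694 ± 82.6 CPM in aged LT-HSC and 1562 ± 78.2 in aged ST-HSC (log2 difference 0.12, adjusted p = 0.25). Ly6a, which encodes Sca1, was at 90.03 ± 18.8 CPM in aged LT-HSC and 56.4 ± 13.8 in aged ST-HSC (log2 difference 0.68, adjusted p = 0.09), and the groups overlapped for both of these genes. In a fit to only the groups compared Ly6a was called higher (adjusted p = 0.016).

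Markers of other cell types made up a small share of every library and differed between the groups. The 15 granulocyte markers in the table summed to 0.00656% to 0.00815% of counts in aged LT-HSC and to 0.0221%, 0.176%, 0.0483% and 0.0078% in aged ST-HSC libraries 1 to 4, and 8 of 11 tested were called lower in aged LT-HSC. Without aged ST-HSC library 2, which was highest, 3 were called lower, and by limma-voom 0 were. The 20 monocyte and macrophage markers summed to 0.0231% to 0.0277% in aged LT-HSC and to 0.026% to 0.107% in aged ST-HSC, where library 4 was highest, and 11 of 19 tested were called lower, against 6 without that library and 4 by limma-voom. The 13 erythroblast markers summed to 0.00614% to 0.00937% in aged LT-HSC and to 0.0349%, 0.0663%, 0.00636% and 0.0486% in aged ST-HSC libraries 1 to 4, so ST-HSC library 3 alone was at the LT-HSC level. The 15 B and plasma cell markers reached 0.0391% in aged ST-HSC library 4 and lay between 0.00217% and 0.00478% in the other 7 libraries. Of these B cell markers Ms4a1, Pax5 and Igll1 had no count in any of the 8 libraries. The 19 endothelial and stromal markers took 0.0154% to 0.0182% in aged LT-HSC and 0.0294% to 0.0417% in aged ST-HSC. The 13 dendritic cell markers took 0.022% to 0.0281% in aged LT-HSC and 0.0528% to 0.0666% in aged ST-HSC. They include Flt3, also a progenitor marker, which was lower in aged LT-HSC (log2 difference -4.90, levels below), so this share also counts a progenitor gene. Of 11 tested dendritic markers 3 were lower, 1 higher and 7 not called. The 12 megakaryocyte markers took 0.0213% to 0.0365% in aged LT-HSC and 0.0139% to 0.0167% in aged ST-HSC. The 19 T and NK cell markers took 0.00889% to 0.0137% in aged LT-HSC and 0.00221% to 0.00699% in aged ST-HSC, of which Klrb1c, an NK cell receptor gene and a listed gene of aged stem cells, was the largest part in LT-HSC at 91.4 ± 20.6 CPM. Mast cell, basophil and eosinophil markers were at most 0.00223% in any library. The 14 progenitor markers, among them Kit, Hlf and Meis1, took 0.616% to 0.644% in aged LT-HSC and 0.544% to 0.649% in aged ST-HSC. What part other cells had in the results below was not tested.

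**Figure D1:**
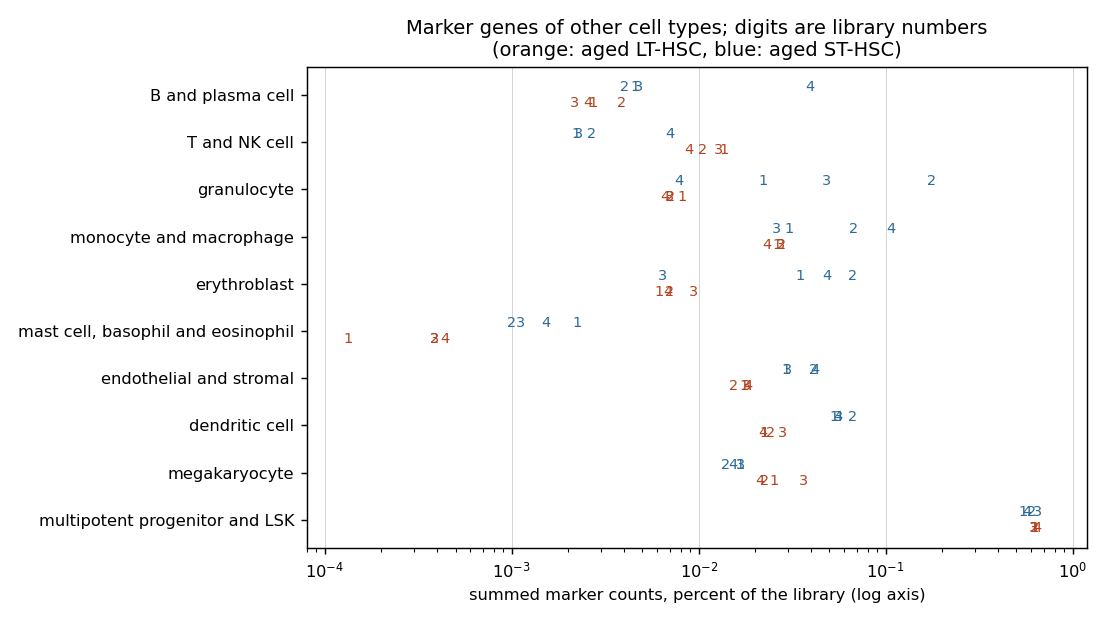
Summed counts of the marker genes of each cell type as a percent of the library (x axis, log scale), with a digit for each library (orange for aged LT-HSC, blue for aged ST-HSC). Aged ST-HSC library 2 is highest for granulocyte markers at 0.176%, and library 4 for B and plasma cell markers at 0.0391%.

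Of 14205 tested genes, 4582 (32.3%) differed between aged LT-HSC and aged ST-HSC. Of these, 2301 were higher in aged LT-HSC (16.2% of tested genes) and 2281 lower (16.1%). At least 2-fold differences numbered 1094 higher (7.7%) and 849 lower (5.98%). In 2197 genes (15.5%) all 4 LT-HSC values lay above all 4 ST-HSC values, and in 1790 genes (12.6%) all lay below. The median log2 difference over all tested genes was -0.002, a value that the scaling sets close to 0, so differences are relative to the typical gene and a general shift could not be seen. Over the alternatives run, 3772 genes (a fit to only the groups compared) to 4774 genes (DESeq2) were called, and leaving out each aged library in turn gave 4041 to 4616.

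**Figure D2:**
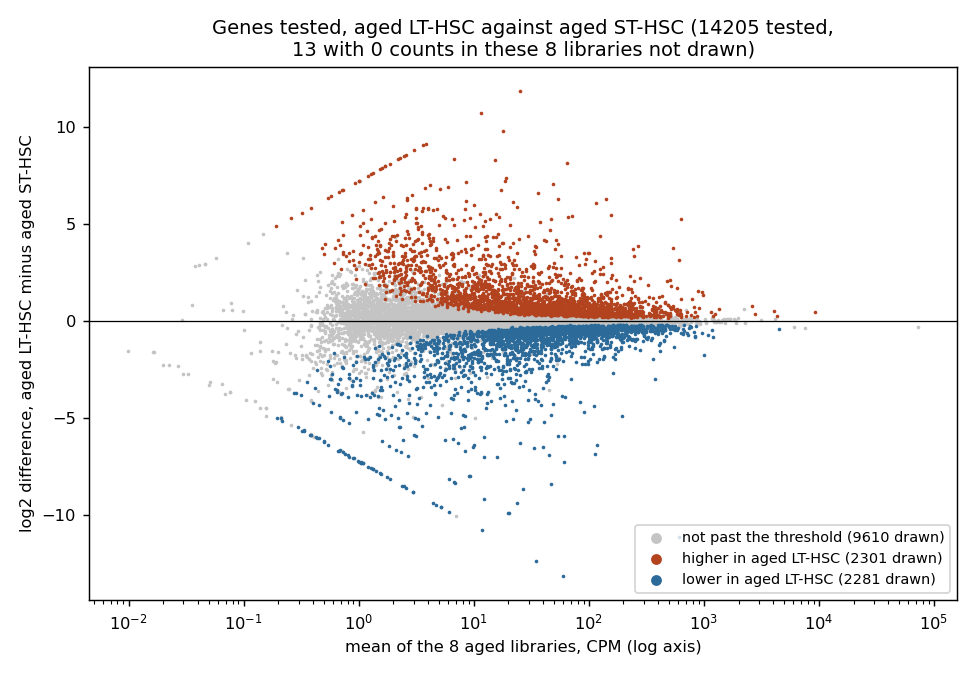
Each point is a tested gene, with its mean level over the 8 aged libraries in CPM (x axis, log scale) and its log2 difference (y axis). The 2301 higher genes are orange and the 2281 lower genes blue, and the straight diagonal rows of points at the left are genes with no count in 1 of the groups.

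The largest differences among well-expressed genes were of genes close to absent in the other population. The 15 higher genes were chosen as those of largest difference with a mean of at least 10 CPM over the 8 libraries and no overlap between groups. Osmr, the receptor subunit for the cytokine oncostatin M (chr15:6813577-6874969 on mm10, minus strand), stood at 57.6, 52.6, 43.1 and 47.9 CPM in aged LT-HSC libraries 1 to 4, from 1725 counts in all, and had no count in any aged ST-HSC library. With a floor of 3 counts over the 4 ST-HSC libraries it was at least 633-fold higher in aged LT-HSC (adjusted p = 1.8e-07). Rbpjl, a paralog of the Notch effector RBPJ, was at 21.9, 27.9, 27.7 and 14.02 CPM and also had no count in aged ST-HSC, a difference of at least 289-fold (adjusted p = 5.8e-09). Kcnb2, a voltage-gated potassium channel, was at 31.9, 57.6, 36.7 and 17.7 CPM against 1 count in aged ST-HSC, a ratio of 1390 (95% interval 249 to 55000). Ccbe1, a secreted protein required for lymphatic vessel growth, was at 33.6, 29.5, 38.4 and 20.1 CPM against 3 counts, all in ST-HSC library 3, a ratio of 380 (95% interval 130 to 1840). These intervals cover counting error only. None of the 4 genes was found at more than 0.4 CPM in any aged ST-HSC library.

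Among the other higher genes, Clu, the secreted chaperone clusterin, was at 147, 151, 100.4 and 117 CPM in aged LT-HSC and 1.11, 0, 0.267 and 0.102 CPM in aged ST-HSC (log2 difference 8.15, adjusted p = 1.6e-05). Its size depended on aged ST-HSC library 1, without which it was 9.91. Ramp2, which turns the calcitonin receptor-like receptor into an adrenomedullin receptor, was at 38.1 ± 13.4 CPM in aged LT-HSC and 0.248 ± 0.188 in aged ST-HSC (7.35, adjusted p = 5e-06). Cldn5, the tight junction protein claudin-5, was at 37.2 ± 11.8 CPM in aged LT-HSC and 0.242 ± 0.198 in aged ST-HSC (7.20, adjusted p = 2.4e-05). Sdpr, which encodes the caveolar coat protein cavin-2, was at 281 ± 37.8 CPM in aged LT-HSC and 3.45 ± 3.105 in aged ST-HSC (6.30, adjusted p = 5.7e-09). In all of these the lowest LT-HSC library was above the highest ST-HSC library, as the rule required. Matn4, the extracellular matrix protein matrilin-4, was at 96.6 ± 15.1 CPM in aged LT-HSC and 0.663 ± 0.711 in aged ST-HSC (7.08). Gprc5c, an orphan receptor of a family induced by retinoic acid, was at 34.2 ± 7.34 CPM in aged LT-HSC and 0.327 ± 0.396 in aged ST-HSC (6.76), and Cyp26b1, the enzyme that breaks retinoic acid down, at 226 ± 16.6 CPM in aged LT-HSC and 3.22 ± 2.01 in aged ST-HSC (6.09, adjusted p = 1.9e-10). Tdrd9, a Tudor domain helicase of the piRNA pathway, was at 108 ± 14.9 CPM in aged LT-HSC and 1.35 ± 0.7099 in aged ST-HSC (6.27). Dnm3, a dynamin of membrane scission, was at 42.9 ± 9.06 CPM in aged LT-HSC and 0.617 ± 0.627 in aged ST-HSC (6.13). Ptgfrn, a membrane protein that partners with tetraspanins, was at 19.8 ± 2.03 CPM in aged LT-HSC and 0.313 ± 0.4405 in aged ST-HSC (5.998). Adjusted p-values of Matn4, Gprc5c, Tdrd9, Dnm3 and Ptgfrn were 0.00019, 5.9e-08, 1.7e-07, 3.3e-08 and 6.8e-05. Leaving out 1 ST-HSC library enlarged 5 of these differences, to 7.85 for Matn4 (library 1), 7.55 for Gprc5c and 7.12 for Ptgfrn (library 3), and 7.08 for Dnm3 and 7.12 for Sdpr (library 4). Ramp2 differed by 8.52 without ST-HSC libraries 2 and 3 together.

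The 15 lower genes, chosen by the same rule, held granule and surface proteins of myeloid cells and genes of early lymphoid cells. Ctsg, the neutrophil granule protease cathepsin G, had no count in any aged LT-HSC library and 157, 38.4, 73.7 and 8.64 CPM in aged ST-HSC libraries 1 to 4, so it was at least 880.0-fold lower in aged LT-HSC (adjusted p = 0.0059). Mpo, myeloperoxidase (chr11:87793581-87804413 on mm10, plus strand), was at 0.605, 0.711, 0.255 and 0.488 CPM in aged LT-HSC and 2287, 842, 1631 and 105 CPM in aged ST-HSC (log2 difference -11.14, adjusted p = 0.00065). Aged ST-HSC library 4 was the lowest of the ST-HSC libraries for both genes and lay above every LT-HSC library, as the rule required. Ly6c2, a surface protein of monocytes whose near-identical neighbour Ly6c1 makes its reads hard to place, had 1 count in aged LT-HSC, a ratio of 1410 (95% interval 252 to 55600) in favour of ST-HSC, with 64.4, 31.1, 64.3 and 1.73 CPM in aged ST-HSC. Cd33, a myeloid sialic acid receptor, had 1 count in aged LT-HSC and 45.4, 33.6, 55.8 and 24.7 CPM in aged ST-HSC, a ratio of 1350 (95% interval 243 to 53500). Ms4a3, a membrane protein of granulocyte and monocyte progenitors, had 2 counts in aged LT-HSC and 97.6, 29.7, 58.995 and 1.73 CPM in aged ST-HSC, a ratio of 870 (95% interval 240 to 7190). Dntt, the terminal transferase of antigen receptor recombination, stood at 0, 0, 0.5102 and 0 CPM in aged LT-HSC and 61.96, 45.6, 55.7 and 49.7 CPM in aged ST-HSC (-8.67, adjusted p = 3.7e-08). The ST-HSC libraries were close to each other for Dntt and Cd33 and spread widely for Ly6c2, Ms4a3, Mpo and Ctsg. All 4 counts of Dntt in aged LT-HSC and both counts of Ms4a3 were in library 3, and the count of Ly6c2 and that of Cd33 were in library 1, so without that library each gene stood at 0 in aged LT-HSC.

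The remaining lower genes had wider ranges in aged LT-HSC. Tespa1 and Ubash3a, regulators of T cell receptor signaling, were at 0.753 ± 0.984 CPM in aged LT-HSC and 88.7 ± 10.03 in aged ST-HSC (-6.89, adjusted p = 7.6e-12), and at 0.397 ± 0.401 CPM in aged LT-HSC and 24.3 ± 5.37 in aged ST-HSC (-5.95, adjusted p = 1.7e-12). Cd244, a SLAM family receptor whose ligand is CD48, was at 1.99 ± 1.24 CPM in aged LT-HSC and 119 ± 12.9 in aged ST-HSC (-5.91, adjusted p = 7.9e-12), with 4 ST-HSC values of 100.2, 124, 129 and 124 CPM. C3, the central protein of complement, was at 0.644 ± 1.05 CPM in aged LT-HSC and 49.4 ± 8.93 in aged ST-HSC (-6.28, adjusted p = 0.006). Atp8b4, a phospholipid flippase subunit, was at 0.261 ± 0.316 CPM in aged LT-HSC and 94.3 ± 59.8 in aged ST-HSC (-8.41, adjusted p = 2.5e-05). Hist1h1b, a linker histone gene of dividing cells, was at 2.17 ± 2.63 CPM in aged LT-HSC and 79.3 ± 43.9 in aged ST-HSC (-5.22, adjusted p = 0.00011). Rab44, a large Rab GTPase, was at 1.54 ± 0.797 CPM in aged LT-HSC and 57.6 ± 52.01 in aged ST-HSC (-5.22, adjusted p = 0.00017). Fam46a, a noncanonical poly(A) polymerase, was at 1.08 ± 0.928 CPM in aged LT-HSC and 36.8 ± 1.78 in aged ST-HSC (-5.13, adjusted p = 2.3e-10), and Chdh, choline dehydrogenase, at 1.26 ± 0.824 CPM in aged LT-HSC and 42.8 ± 12.8 in aged ST-HSC (-5.03, adjusted p = 8.3e-08). By limma-voom 8 of the 15 lower genes lost their calls: Ctsg, Mpo, Ly6c2, Ms4a3, Atp8b4, C3, Hist1h1b and Rab44 had adjusted p of 0.29, 0.3, 0.35, 0.53, 0.053, 0.15, 0.053 and 0.055. Ctsg also lost its call in a fit to only the groups compared (adjusted p = 0.055). Sizes also rested on single libraries: the difference was -8.30 for Tespa1, -6.64 for Ubash3a and -8.58 for C3 without aged LT-HSC library 4. It was -9.17 for Atp8b4 and -5.89 for Fam46a without LT-HSC library 3, -6.29 for Hist1h1b without LT-HSC library 1, and -4.37 for Rab44 without ST-HSC library 1.

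**Figure D3:**
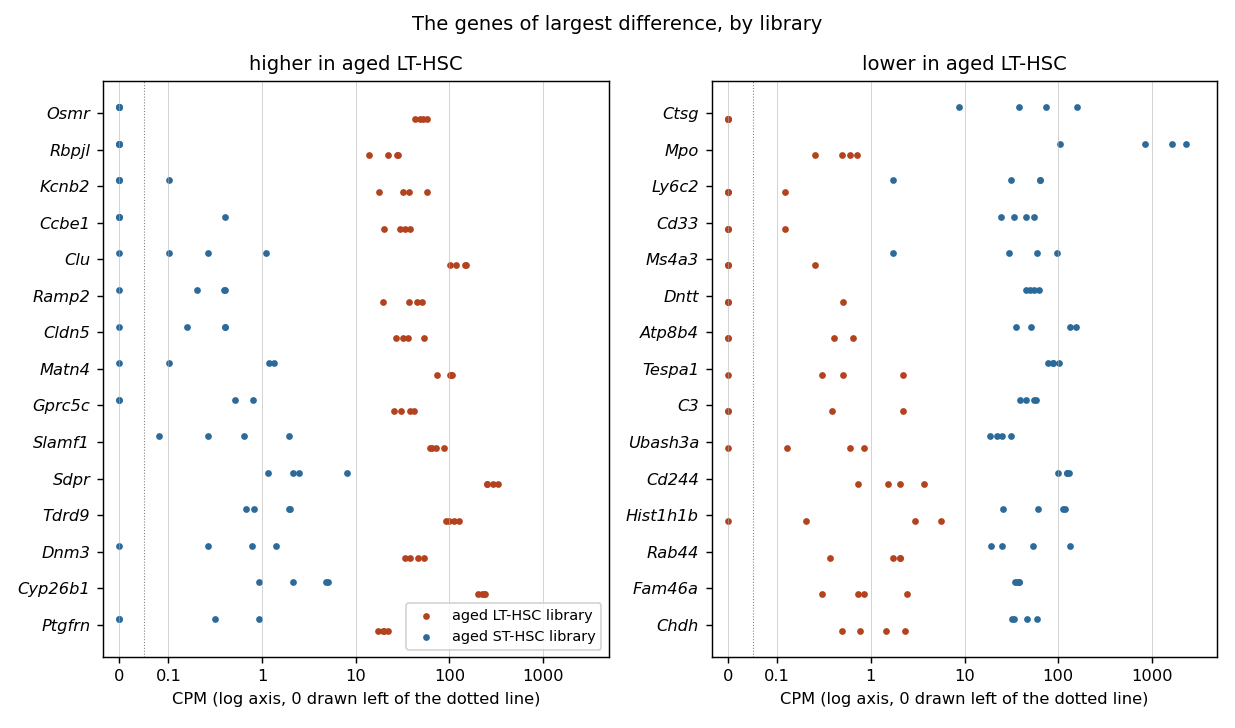
The 15 genes of largest difference in each direction, with the CPM of each library on a log x axis (orange for aged LT-HSC, blue for aged ST-HSC) and a value of 0 drawn left of the dotted line. In every row the colours do not overlap, as the rule required, and the ST-HSC points of Mpo, Ms4a3 and Ly6c2 are widely spread.

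Gene lists were then described by the number of their tested members called each way, to be read against 16.2% of all tested genes called higher and 16.1% called lower. The lists were chosen with earlier results of these data known, so the counts describe the lists and are not tests. Genes that mark or maintain LT-HSC were mostly higher: of 40 tested genes, 34 were higher and 2 lower in aged LT-HSC, with a median log2 difference of 1.32. Vwf, the clotting factor that marks platelet-biased stem cells, stood at 1184, 1245, 1235 and 1255 CPM in aged LT-HSC and 29.2, 27.9, 32.7 and 37.1 CPM in aged ST-HSC (5.28, adjusted p = 3e-12). Fgd5, a Cdc42 exchange factor used to mark LT-HSC, was at 375 ± 40.4 CPM in aged LT-HSC and 76.2 ± 7.47 in aged ST-HSC (2.30). Mycn, a MYC family factor, was at 269 ± 59.4 CPM in aged LT-HSC and 51.2 ± 7.83 in aged ST-HSC (2.39). Tek, the angiopoietin receptor Tie2, was at 86.5 ± 6.16 CPM in aged LT-HSC and 17.996 ± 3.69 in aged ST-HSC (2.27). Of the transcription factors that keep stem cells, Mecom was at 471 ± 25.8 CPM in aged LT-HSC and 201 ± 24.1 in aged ST-HSC (1.23), Gata2 at 610.02 ± 31.96 CPM in aged LT-HSC and 251 ± 10.9 in aged ST-HSC (1.28), and Prdm16 at 201 ± 18.8 CPM in aged LT-HSC and 73.3 ± 4.37 in aged ST-HSC (1.45). Procr, the surface receptor EPCR, differed by 0.98, and the calls of all of these were kept in every alternative. Hlf, another stem cell factor, was at 1264 ± 78.7 CPM in aged LT-HSC and 1285 ± 184 in aged ST-HSC, with a log2 difference of -0.02 (adjusted p = 0.89). Hoxa9 (-0.53) and Il12rb2 (-1.04) were the 2 lower members, and the Hoxa9 call was lost without aged ST-HSC libraries 2 and 3 together.

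A list of 35 genes reported in the literature to rise in stem cells with age was also read between the populations of aged mice, and 33 of them were higher in aged LT-HSC and 0 lower (0 at an unadjusted p under 0.05 in edgeR, 0 by DESeq2, 0 by limma-voom), with a median of 3.51. In young mice 24 of them were already higher in LT-HSC and 1 lower, with a median of 2.41. The difference became more positive with age in 12 and more negative in 0 (1 at an unadjusted p under 0.05 in edgeR, 0 by DESeq2, 0 by limma-voom). Clca3a1, a secreted protease-like protein with a close paralog in the genome, was at 303 ± 40.7 CPM in aged LT-HSC and 6.53 ± 5.12 in aged ST-HSC (5.45). Without aged ST-HSC library 1 the Clca3a1 difference was 6.13. Neo1, the netrin and RGM receptor neogenin, was at 128 ± 28.2 CPM in aged LT-HSC and 3.12 ± 1.17 in aged ST-HSC (5.35). Ehd3, an endosome recycling protein, was at 240.2 ± 36.8 CPM in aged LT-HSC and 11.4 ± 2.49 in aged ST-HSC (4.39), Sult1a1, a phenol sulfotransferase, at 502 ± 53.4 CPM in aged LT-HSC and 34.7 ± 5.45 in aged ST-HSC (3.85), and Gda, guanine deaminase, at 446 ± 46.4 CPM in aged LT-HSC and 33.5 ± 13.2 in aged ST-HSC (3.73). Cd38, an NAD-consuming ectoenzyme, was at 78.6 ± 8.94 CPM in aged LT-HSC and 11.1 ± 7.501 in aged ST-HSC (2.83). All 35 genes had every LT-HSC value above every ST-HSC value, against 15.5% of all tested genes. Nr4a1 (0.60, adjusted p = 0.15) did not pass the test. It was called higher in a fit to only the groups compared (adjusted p = 0.045) and with a replicate block (0.0051). Mt2 (2.37, adjusted p = 0.09) did not pass either. Mt1, the partner metallothionein that binds zinc, was at 105 ± 18.2 CPM in aged LT-HSC and 23.7 ± 12.3 in aged ST-HSC (2.14, adjusted p = 0.031), and its call was lost in 7 alternatives, 6 of which left out 1 aged library (libraries 1, 2 and 3 of either population).

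Homeobox genes of the Hox, Meis and Pbx families, which act together on DNA in stem cells, were higher in 18 and lower in 4 of 26 tested genes (median 0.96). The Hoxb cluster was higher at several neighbours. Hoxb8 stood at 7.65 ± 1.46 CPM in aged LT-HSC with no count in aged ST-HSC, at least 97.0-fold higher (adjusted p = 1.5e-05), and Hoxb9 had 2 counts in aged ST-HSC and 8.27 ± 1.35 CPM in aged LT-HSC, a ratio of 156 (95% interval 42.8 to 1290). Hoxb5, a marker of LT-HSC, was at 20.5 ± 3.47 CPM in aged LT-HSC and 3.55 ± 1.43 in aged ST-HSC (2.51), Hoxb3 at 33.7 ± 3.804 CPM in aged LT-HSC and 12.4 ± 3.12 in aged ST-HSC (1.44), and Hoxb4, known for expanding stem cells when forced, at 36.2 ± 4.82 CPM in aged LT-HSC and 19.3 ± 2.04 in aged ST-HSC (0.91). In the Hoxa cluster Hoxa10 was higher (0.93) and Hoxa9 and Hoxa7 lower (-0.53 and -0.71). The Hoxa7 call was lost in 7 alternatives, among them those without aged LT-HSC library 1, 3 or 4 and without aged ST-HSC library 1 or 3, and the Hoxa9 call without ST-HSC libraries 2 and 3 together. Both Hoxb9 counts in aged ST-HSC were in library 1. Among genes of proteins that partner with Hox proteins, Meis1 differed by 0.40, Pbx3 by 1.45 and Pbx4 by -0.88, all past the threshold. The library kit does not mark strand, so reads of overlapping and antisense transcripts in these clusters cannot be told apart.

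Imprinted genes, expressed from a single parental copy several of them known for holding stem cells out of division, were higher in 12 and lower in 1 of 20 tested (median 1.39). The noncoding RNAs of the Dlk1-Meg3 domain moved together. Meg3 stood at 119, 69.5, 53.95 and 149 CPM in aged LT-HSC and 10.8, 2.85, 0.133 and 6.61 CPM in aged ST-HSC (4.18, adjusted p = 2e-05). Rian was at 28.1 ± 14.9 CPM in aged LT-HSC and 1.31 ± 1.33 in aged ST-HSC (4.35) and Dlk1, the protein-coding gene of the domain, at 17.8 ± 6.67 CPM in aged LT-HSC and 0.791 ± 0.707 in aged ST-HSC (4.39). Their sizes were smaller without aged ST-HSC libraries 2 and 3 together, at 3.47, 3.71 and 3.67. Without aged ST-HSC library 1 Meg3 differed by 4.86, and without library 4 Rian differed by 5.18. H19, a noncoding RNA paired with Igf2, had 1 count in aged ST-HSC, in library 1, and 5.81, 1.63, 2.04 and 1.59 CPM in aged LT-HSC, where library 1 was highest, a ratio of 102 (95% interval 17.9 to 4090). Grb10, an adaptor that damps insulin signaling, was at 255 ± 35.8 CPM in aged LT-HSC and 54.7 ± 18.7 in aged ST-HSC (2.22, adjusted p = 6.4e-08). Cdkn1c, the CDK inhibitor p57, was at 21.5 ± 3.07 CPM in aged LT-HSC and 5.68 ± 0.352 in aged ST-HSC (1.91, adjusted p = 8.7e-08), and Ndn, the growth suppressor necdin, at 49.1 ± 1.63 CPM in aged LT-HSC and 8.24 ± 1.93 in aged ST-HSC (2.56, adjusted p = 2.8e-09). Gnas was the lower member (-0.32), and its call was lost without aged LT-HSC library 4 or aged ST-HSC library 1 or 2.

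The retinoic acid pathway, a vitamin A signal known to hold stem cells quiet, had 7 higher and 3 lower of 14 tested genes (median 0.46). Rdh10 and Aldh1a1, which make retinaldehyde and retinoic acid, were at 58.7 ± 9.79 CPM in aged LT-HSC and 14.9 ± 1.62 in aged ST-HSC (1.98), and at 282 ± 40.3 CPM in aged LT-HSC and 84.6 ± 20.997 in aged ST-HSC (1.73). The receptors Rarb and Rarg were at 60.96 ± 16.1 CPM in aged LT-HSC and 10.8 ± 2.14 in aged ST-HSC (2.50), and at 38.97 ± 3.05 CPM in aged LT-HSC and 20.2 ± 6.49 in aged ST-HSC (0.95). With Cyp26b1 above, both the enzymes that make and the enzyme that breaks down the ligand were higher. Dhrs3, which turns retinaldehyde back to retinol, was lower (-0.67), as was the receptor Rxrb (-0.51). Adjusted p-values of Rdh10, Aldh1a1, Rarb, Rarg, Dhrs3 and Rxrb were 1.2e-10, 0.00024, 7.7e-11, 0.00093, 0.0025 and 0.00012.

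Platelet and megakaryocyte genes were higher in 20 and lower in 1 of 32 tested (median 0.80). In young mice 17 of them were higher and 1 lower in LT-HSC (median 0.86). Itgb3, the beta chain of the platelet fibrinogen receptor, stood at 956, 935, 1112 and 1019.6 CPM in aged LT-HSC and 68.2, 51.5, 77.3 and 94.98 CPM in aged ST-HSC (3.78, adjusted p = 4.5e-09). Selp, the adhesion protein P-selectin of platelet granules, was at 453 ± 51.2 CPM in aged LT-HSC and 43.8 ± 22.4 in aged ST-HSC (3.37), and Mmrn1, a factor V carrier, at 514 ± 13.1 CPM in aged LT-HSC and 142 ± 18.9 in aged ST-HSC (1.86). Treml1, a receptor of platelet granules, was at 6.19 ± 2.68 CPM in aged LT-HSC and 0.726 ± 0.471 in aged ST-HSC (3.05). Some genes of mature platelets did not pass the test. Pf4, platelet factor 4, was at 5.31 ± 1.81 CPM in aged LT-HSC and 10.95 ± 6.94 in aged ST-HSC (adjusted p = 0.28), and Ppbp, another platelet chemokine, at 0.449 ± 0.495 CPM in aged LT-HSC and 1.59 ± 0.974 in aged ST-HSC (adjusted p = 0.35). Gata1, the factor of both megakaryocytes and red cells, was the lower member, at 1.36 ± 1.01 CPM in aged LT-HSC and 16.4 ± 12.9 in aged ST-HSC (-3.61, adjusted p = 0.0091), a call lost by limma-voom (adjusted p = 0.12), and its difference was -4.24 without aged LT-HSC library 1.

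Of 22 tested integrin subunits, which anchor cells to matrix and to other cells, 7 were higher and 10 lower (median 0.02). Itga6, the laminin receptor chain, was at 574 ± 32.5 CPM in aged LT-HSC and 239 ± 17.9 in aged ST-HSC (1.26), and Itga3 at 30.6 ± 5.79 CPM in aged LT-HSC and 8.22 ± 3.05 in aged ST-HSC (1.90). Itga2b, the alpha partner of Itgb3, differed by 0.71. The leukocyte integrin chains were lower. Itgal, the alpha chain of LFA-1, stood at 2.78, 7.22, 14.03 and 6.34 CPM in aged LT-HSC and 153, 81.8, 131 and 75.1 CPM in aged ST-HSC (-3.87, adjusted p = 7e-08). Itgam, the alpha chain of Mac-1, was at 3.97 ± 1.79 CPM in aged LT-HSC and 67.8 ± 20.2 in aged ST-HSC (-4.09, adjusted p = 1.4e-11), and their shared beta chain Itgb2 at 39.8 ± 9.795 CPM in aged LT-HSC and 73.1 ± 8.499 in aged ST-HSC (-0.88). Itga4 and Itgb7, which pair in lymphocyte homing, differed by -0.49 and -1.02. Itgb5 was at 1.88 ± 1.67 CPM in aged LT-HSC and 45.003 ± 8.83 in aged ST-HSC (-4.59), and at -5.41 without aged LT-HSC library 1.

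Receptors shared with blood vessel cells and the niche were higher in 16 and lower in 11 of 29 tested (median 0.44). Kdr, the VEGF receptor 2, was at 32.7 ± 4.12 CPM in aged LT-HSC and 0.728 ± 0.587 in aged ST-HSC (5.37, adjusted p = 2.8e-09), and the difference was 5.96 without aged ST-HSC library 1. Jam2 and Jam3, junctional adhesion molecules, were at 80.9 ± 16.5 CPM in aged LT-HSC and 4.47 ± 1.23 in aged ST-HSC (4.15), and at 19.6 ± 3.12 CPM in aged LT-HSC and 5.73 ± 1.01 in aged ST-HSC (1.76). Alcam, an adhesion molecule of the immunoglobulin family, was at 351 ± 37.8 CPM in aged LT-HSC and 112 ± 19.5 in aged ST-HSC (1.65). Tie1 and Eng, receptor genes of endothelium, differed by 0.96 and 0.76. Cd34, a sialomucin that LT-HSC of mice are known to lack, stood at 76.9, 85.5, 87.1 and 93.4 CPM in aged LT-HSC and 658, 694, 650.4 and 691 CPM in aged ST-HSC (-2.97, adjusted p = 1.2e-15). Cd44, Pecam1 and Selplg differed by -0.75, -0.62 and -0.87, all called lower. The summed endothelial and stromal marker share was higher in aged ST-HSC, as given above. Kdr is itself among those markers, of which 2 were higher and 3 lower of 12 tested. What part such cells had in these differences was not tested.

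Among 34 growth factor and cytokine receptors, 6 were higher and 14 lower (median -0.42). Beside Osmr, its signaling partner Il6st (gp130) was at 141 ± 5.26 CPM in aged LT-HSC and 78.7 ± 10.3 in aged ST-HSC (0.84, adjusted p = 2e-04). Ghr, the growth hormone receptor, was at 40.6 ± 4.03 CPM in aged LT-HSC and 4.47 ± 0.89 in aged ST-HSC (3.17), Igf1r at 735 ± 63.97 CPM in aged LT-HSC and 496 ± 51.3 in aged ST-HSC (0.57), and Insr at 306 ± 7.33 CPM in aged LT-HSC and 217 ± 23.4 in aged ST-HSC (0.50). Flt3, the receptor that marks loss of long-term self-renewal, stood at 12.7, 10.3, 18.9 and 9.39 CPM in aged LT-HSC and 388, 376, 414 and 339 CPM in aged ST-HSC (-4.90, adjusted p = 7.6e-18). Il1r1, the IL-1 receptor, was at 35.03 ± 3.44 CPM in aged LT-HSC and 160.2 ± 29.3 in aged ST-HSC (-2.19), Il18r1 at 9.18 ± 3.74 CPM in aged LT-HSC and 34.4 ± 8.97 in aged ST-HSC (-1.91), and Csf2rb, the shared chain for GM-CSF and IL-5, at 19.2 ± 2.81 CPM in aged LT-HSC and 74.3 ± 18.2 in aged ST-HSC (-1.95). Receptor chains for interferon (Ifnar2, -0.996, and Ifngr2, -0.87), IL-6 (Il6ra, -1.07), IL-10 (Il10ra, -1.15) and IL-17 (Il17ra, -0.92) were also lower. So both chains that oncostatin M binds were higher while the IL-6 specific chain was lower.

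TGF-beta and BMP signaling, ligands and receptors known to keep stem cells quiescent, had 11 higher and 4 lower of 26 tested genes (median 0.22). Among ligands Bmp4 was at 19.9 ± 3.66 CPM in aged LT-HSC and 0.687 ± 0.601 in aged ST-HSC (4.85, adjusted p = 2.1e-05) and Tgfb3 at 17.7 ± 5.47 CPM in aged LT-HSC and 4.695 ± 0.9405 in aged ST-HSC (1.91), while Tgfb1 was lower (-0.66). Among receptors Tgfbr3, the coreceptor betaglycan, was at 338 ± 17.7 CPM in aged LT-HSC and 104 ± 7.33 in aged ST-HSC (1.70), Bmpr2 differed by 0.50, and Tgfbr2 was lower (-0.77). The receptor Tgfbr1 (0.08, adjusted p = 0.77) and the mediator Smad4 (-0.04, adjusted p = 0.81) did not pass the test, and Smad3 did (0.43).

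Lymphoid priming genes were lower in 18 and higher in 4 of 30 tested (median -0.94, or -0.92 with genes at 0 in 1 group set to their bound). In young mice 19 of them were lower and 1 higher in LT-HSC (median -0.90). Satb1, a chromatin organizer of lymphoid fate, stood at 13.8, 9.45, 9.57 and 7.19 CPM in aged LT-HSC and 202, 185, 282 and 174 CPM in aged ST-HSC (-4.40, adjusted p = 2.7e-15). Ikzf1, Ikaros, was at 218 ± 28.98 CPM in aged LT-HSC and 404 ± 11.2 in aged ST-HSC (-0.89), Ikzf2 at 160.1 ± 17.6 CPM in aged LT-HSC and 310.1 ± 53.4 in aged ST-HSC (-0.95), and Notch1 at 236 ± 26.1 CPM in aged LT-HSC and 358 ± 40.6 in aged ST-HSC (-0.60). Cd52, a small lymphocyte surface glycoprotein, was at 0.337 ± 0.3195 CPM in aged LT-HSC and 16.1 ± 1.58 in aged ST-HSC (-5.47). Of the higher members, Foxo1 was at 108 ± 21.4 CPM in aged LT-HSC and 42.7 ± 3.16 in aged ST-HSC (1.34) and Mef2c at 353 ± 45.4 CPM in aged LT-HSC and 209 ± 33.2 in aged ST-HSC (0.76). Without aged ST-HSC library 1, or without library 4, 2 members were higher. Il7r, the receptor for the lymphoid cytokine IL-7, had no count in aged LT-HSC and 0.159, 0, 1.602 and 6.305 CPM in aged ST-HSC, at least 23.0-fold lower (adjusted p = 0.035). Its call was lost in limma-voom (adjusted p = 0.58), in the fit without aged ST-HSC library 4 (0.19) and without any of the 4 aged LT-HSC libraries (adjusted p of at most 0.069). Rag1, the recombinase, had no count in any of the 8 libraries.

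Myeloid priming genes were lower in 24 and higher in 0 (1 at an unadjusted p under 0.05 in edgeR, 0 by DESeq2, 0 by limma-voom) of 31 tested (median -3.53). Beside the granule genes above, Cebpa, the factor that opens the granulocyte and monocyte path, was at 1.55 ± 0.407 CPM in aged LT-HSC and 26.7 ± 10.1 in aged ST-HSC (-4.09, adjusted p = 1.4e-08). Spi1, PU.1, was at 27.9 ± 4.98 CPM in aged LT-HSC and 65.9 ± 10.7 in aged ST-HSC (-1.24), Irf8 at 4.11 ± 2.02 CPM in aged LT-HSC and 11.4 ± 2.63 in aged ST-HSC (-1.48), and Gfi1 at 22.1 ± 11.4 CPM in aged LT-HSC and 81.1 ± 27.3 in aged ST-HSC (-1.87). Csf1r, the macrophage growth factor receptor, was at 2.35 ± 1.09 CPM in aged LT-HSC and 34.3 ± 36.6 in aged ST-HSC (-3.86, adjusted p = 0.00042), at -2.85 without aged ST-HSC library 4, and not called by limma-voom (adjusted p = 0.068). Elane, neutrophil elastase, stood at 0.847, 2.34, 3.06 and 1.59 CPM in aged LT-HSC and 411, 162, 319 and 0.6101 CPM in aged ST-HSC, and the groups overlapped (-6.82, adjusted p = 0.021). Limma-voom did not keep its call, nor did the fits without LT-HSC library 1, 2 or 4 (adjusted p of 0.58, 0.054, 0.052 and 0.052). Lyz2, lysozyme, was at 236 ± 16.6 CPM in aged LT-HSC and 268 ± 94.6 in aged ST-HSC (-0.18, adjusted p = 0.5). By limma-voom 15 members were lower. The summed granulocyte and monocyte marker shares were above the LT-HSC range in the other aged ST-HSC libraries but within it in ST-HSC library 4 for granulocytes and library 3 for monocytes, and their part in these counts was not tested.

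Erythroid priming genes were lower in 12 and higher in 2 of 24 tested (median -2.21), and the count depended on the fit. Klf1, the red cell master factor, stood at 0.847, 0, 0.128 and 1.22 CPM in aged LT-HSC and 20.3, 12.7, 1.47 and 27.8 CPM in aged ST-HSC (-4.83, adjusted p = 0.014). Car1, carbonic anhydrase 1, had no count in aged LT-HSC and 236, 19.2, 0 and 224 CPM in aged ST-HSC libraries 1 to 4 (adjusted p = 0.038). Aged ST-HSC library 3 was the low library for Car1, and its erythroblast marker share was the lowest of the 4. Car1 is itself an erythroblast marker, so these values are not independent. Tfrc, the transferrin receptor of iron uptake, was at 47.8 ± 2.76 CPM in aged LT-HSC and 138 ± 49.2 in aged ST-HSC (-1.52, adjusted p = 0.00011). By limma-voom 1 member was lower and in a fit to only the groups compared 6 were. The number of higher members was 0 without aged LT-HSC library 3 or 4 and 1 without LT-HSC library 1 or 2 or ST-HSC library 2, 3 or 4. The Klf1 call was lost by limma-voom (adjusted p = 0.21) and its difference was -5.60 without aged LT-HSC library 4, while the Car1 call was lost in 9 alternatives, among them those without aged ST-HSC library 1 or 4 and without each of the aged LT-HSC libraries. The red cell heme enzyme Alas2 was at 27.4 ± 15.4 CPM in aged LT-HSC and 31.7 ± 21.5 in aged ST-HSC (-0.21, adjusted p = 0.81).

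**Figure D4:**
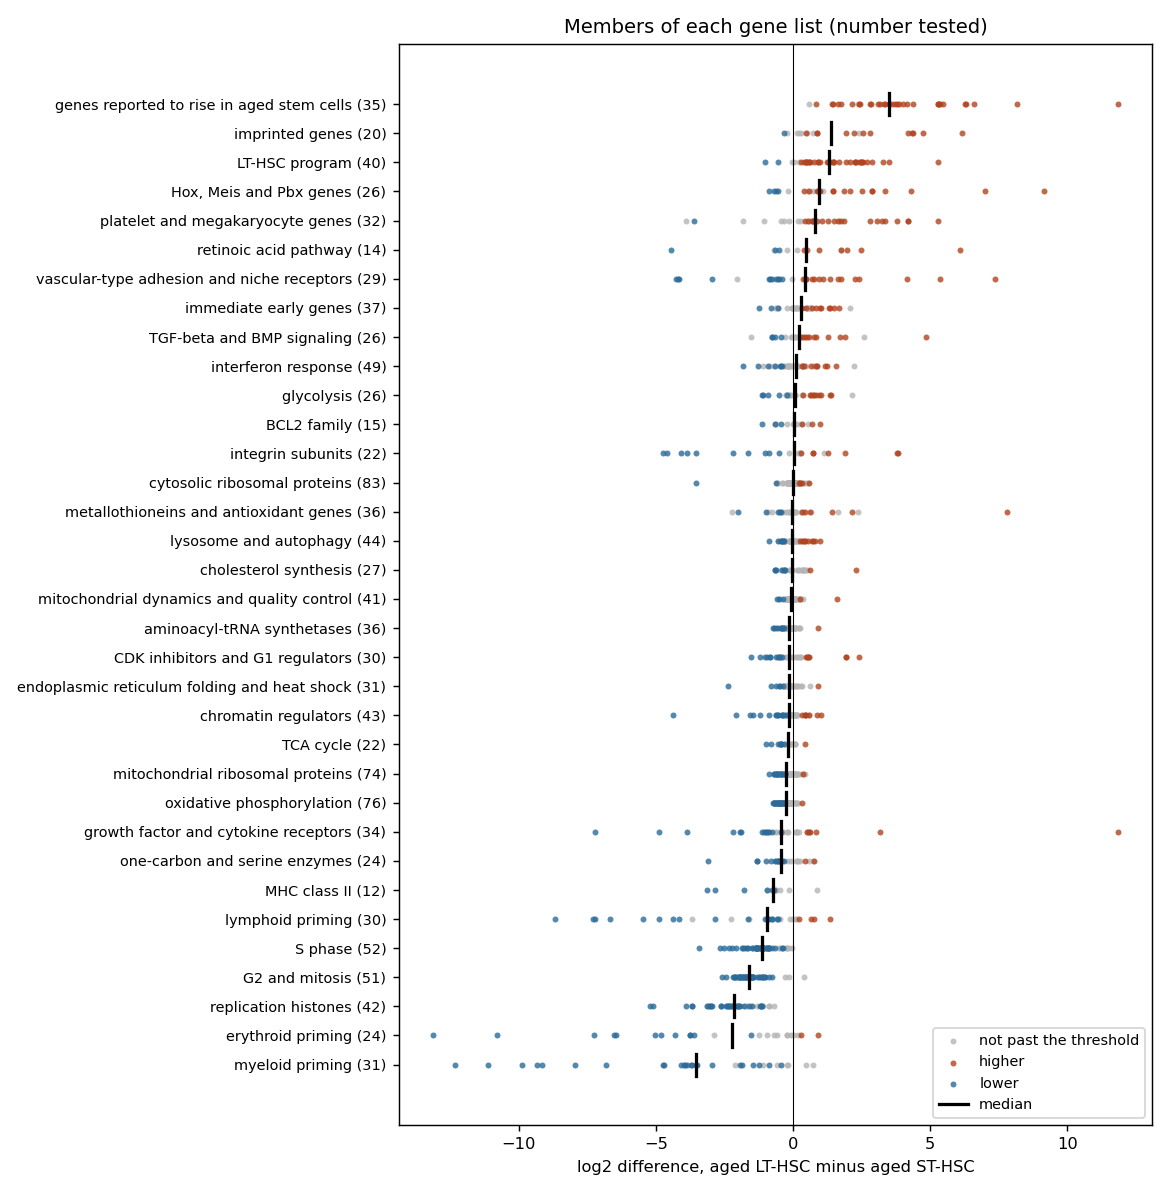
Each point is a tested member of a list (y axis, with the number tested), at its log2 difference between aged LT-HSC and aged ST-HSC (x axis), orange where called higher, blue where called lower and grey otherwise, and a black bar marks the median. Medians run from 3.51 for the listed genes of aged stem cells to -3.53 for myeloid priming genes, and cytosolic ribosomal protein genes stay close to 0.

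Genes of DNA replication were lower almost throughout: of 52 tested S phase genes 45 were lower and 0 higher (0 at an unadjusted p under 0.05 in edgeR, 0 by DESeq2, 0 by limma-voom) in aged LT-HSC, with a median log2 difference of -1.14. Replication starts where the MCM2-7 helicase is loaded by Cdc6 and Cdt1, and its genes are known targets of E2F factors that RB proteins hold back in resting cells. Promoters of 3 helicase genes that hold the E2F motif are shown here because members of the list moved together. The motif was searched as TTCCCGC or TTGGCGC on both strands in the 250 bases before each RefSeq start (GRCm38.p6). Capitals mark its matches in the sequences of these 3 helicase genes. Each window is written 5′ to 3′ on the strand of its gene.
Mcm5: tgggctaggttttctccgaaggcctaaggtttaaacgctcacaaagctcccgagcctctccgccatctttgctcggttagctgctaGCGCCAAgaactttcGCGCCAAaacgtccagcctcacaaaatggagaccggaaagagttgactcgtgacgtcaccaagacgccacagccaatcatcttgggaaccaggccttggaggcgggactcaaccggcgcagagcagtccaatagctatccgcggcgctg
Mcm6: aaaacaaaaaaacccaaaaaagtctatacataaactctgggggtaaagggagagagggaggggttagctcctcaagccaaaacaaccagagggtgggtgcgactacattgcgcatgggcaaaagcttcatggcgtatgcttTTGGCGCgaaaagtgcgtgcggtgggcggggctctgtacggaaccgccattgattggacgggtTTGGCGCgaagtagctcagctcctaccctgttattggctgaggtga
Mcm7: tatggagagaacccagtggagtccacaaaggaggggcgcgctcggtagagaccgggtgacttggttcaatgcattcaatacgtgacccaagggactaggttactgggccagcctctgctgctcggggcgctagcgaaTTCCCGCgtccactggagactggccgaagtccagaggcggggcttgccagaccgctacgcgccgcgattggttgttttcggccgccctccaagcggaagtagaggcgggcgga
These windows lie at chr8:75109259-75109508 on the plus strand, chr1:128359706-128359955 on the minus strand and chr5:138171267-138171516 on the minus strand. Mcm7 has 2 RefSeq starts, and the window shown is the first listed that holds a match. It belongs to a start inside the gene, which begins at chr5:138172422 in GENCODE. The first bases of their matches lie 164 and 149 bases before the start in Mcm5, 109 and 46 in Mcm6 and 113 in Mcm7. Of the 40 tested S phase genes with a RefSeq promoter 13 (32.5%) held a match, against 1205 of 10647 tested genes (11.3%). A match is a run of letters and was not tested as a site.

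The helicase genes themselves were lower. Mcm5 stood at 74.4, 46.9, 81.2 and 81.7 CPM in aged LT-HSC libraries 1 to 4 and 276, 245, 178 and 325 CPM in aged ST-HSC (-1.85, SE 0.21, adjusted p = 7.4e-07). Mcm6 was at 123 ± 7.58 CPM in aged LT-HSC and 261 ± 62.8 in aged ST-HSC (-1.09) and Mcm7 at 62.7 ± 8.42 CPM in aged LT-HSC and 153 ± 29.4 in aged ST-HSC (-1.29). The highest LT-HSC value lay below the lowest ST-HSC value for each of the 3 genes. The loading factors Cdc6 and Cdt1 were at 5.15 ± 1.84 CPM in aged LT-HSC and 29.4 ± 9.89 in aged ST-HSC (-2.52), and at 14.02 ± 3.08 CPM in aged LT-HSC and 46.7 ± 13.9 in aged ST-HSC (-1.75). Uhrf1, which directs maintenance DNA methylation, was at 44.8 ± 13.4 CPM in aged LT-HSC and 189.9 ± 39.8 in aged ST-HSC (-2.09), and its partner Dnmt1 at 252 ± 53.4 CPM in aged LT-HSC and 462 ± 66.3 in aged ST-HSC (-0.87). Rrm2, the ribonucleotide reductase subunit made in S phase, was at 6.88 ± 4.53 CPM in aged LT-HSC and 72.6 ± 45.1 in aged ST-HSC (-3.42), and Pcna, the sliding clamp, at 63.7 ± 17.2 CPM in aged LT-HSC and 101 ± 12.6 in aged ST-HSC (-0.67). Adjusted p-values of Mcm6, Mcm7, Cdc6, Cdt1, Uhrf1, Dnmt1, Rrm2 and Pcna were 4.8e-06, 1.3e-06, 5.7e-06, 2.2e-06, 8.1e-06, 0.00016, 0.00032 and 0.00094.

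Genes of G2 and mitosis were lower in 42 and higher in 0 (0 at an unadjusted p under 0.05 in edgeR, 0 by DESeq2, 0 by limma-voom) of 51 tested (median -1.62). Mki67, the antigen Ki-67 of cycling cells, stood at 169, 61.995, 77.7 and 275 CPM in aged LT-HSC and 529, 663, 463 and 635 CPM in aged ST-HSC (-1.97, SE 0.35, adjusted p = 0.00026). Top2a, topoisomerase II, was at 51.2 ± 46.4 CPM in aged LT-HSC and 196 ± 64.1 in aged ST-HSC (-1.94), and Ccnb2, a mitotic cyclin, at 8.23, 1.12, 0.128 and 28.4 CPM in aged LT-HSC and 47.4, 64.2, 31.8 and 62.2 CPM in aged ST-HSC (-2.45). Aged LT-HSC library 4 was the highest LT-HSC library for Ccnb2, and without it the difference was -4.05. In a fit to only the groups compared 14 members of the list were called lower, and Top2a and Ccnb2 had adjusted p of 0.13 and 0.16. Every LT-HSC value lay below every ST-HSC value in 20 of 51 members, against 36 of 52 S phase genes and 12.6% of all tested genes. The CCAAT box, a promoter element often found in mitotic genes, was searched as CCAAT on both strands. It was found in 32 of 43 mitotic promoters (74.4%), in 22 of 40 S phase promoters (55%) and in 4234 of 10647 tested genes (39.8%). Mki67 was picked for display because it carries 3 matches, on chr7:135716380-135716629, minus strand, while Smc2 of the same list carries 1. Capitals in the Mki67 window mark the CCAAT box only, and an E2F match (TTGGCGC) in it is left in lower case.
Mki67: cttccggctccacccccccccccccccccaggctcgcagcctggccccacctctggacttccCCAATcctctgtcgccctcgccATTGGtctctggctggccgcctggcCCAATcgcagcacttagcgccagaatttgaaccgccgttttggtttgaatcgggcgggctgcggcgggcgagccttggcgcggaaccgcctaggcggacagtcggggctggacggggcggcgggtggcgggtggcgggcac
Replication histone genes, near-identical copies that lack poly(A) tails and whose reads may be split between them, were lower in 31 and higher in 0 (0 at an unadjusted p under 0.05 in edgeR, 0 by DESeq2, 0 by limma-voom) of 42 tested (median -2.15), and lower in 20 by limma-voom.

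Regulators of the G1 phase were mixed, with 7 higher and 11 lower of 30 tested (median -0.14). Cdk6, the kinase whose level sets how fast stem cells leave quiescence, stood at 204, 204, 195 and 252 CPM in aged LT-HSC and 623, 626, 547 and 651 CPM in aged ST-HSC (-1.52, adjusted p = 3.3e-11). Cdk4 was at 136 ± 13.1 CPM in aged LT-HSC and 208 ± 35.9 in aged ST-HSC (-0.61) and Cdk2 at 65.2 ± 5.99 CPM in aged LT-HSC and 90.4 ± 9.27 in aged ST-HSC (-0.47). Cyclins D1 and D2 went the other way, with Ccnd1 at 85.99 ± 16.5 CPM in aged LT-HSC and 57.7 ± 5.04 in aged ST-HSC (0.57) and Ccnd2 at 667 ± 90.9 CPM in aged LT-HSC and 472 ± 33.9 in aged ST-HSC (0.50). Of the inhibitors, Cdkn1c was higher, as given above, while Cdkn1b (p27) and Cdkn2c (p18) were lower (-0.51 and -1.21), and Cdkn1a (p21) was at 42.4 ± 11.3 CPM in aged LT-HSC and 28.6 ± 3.72 in aged ST-HSC (0.57, adjusted p = 0.079). Cdkn1a was called higher by limma-voom (adjusted p = 0.021) and in a fit to only the groups compared (0.029). Rbl2, the RB relative p130 of resting cells, was higher (0.53), and Rbl1, p107, lower (-0.83). The Cdkn2c call was lost without aged ST-HSC libraries 2 and 3 together.

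Of 26 tested glycolysis genes 10 were higher and 5 lower (median 0.08), the higher count above the background and the lower count near it. Higher members included transporters and kinases. Slc2a1 and Slc2a3, glucose transporters, were at 96.7 ± 25.5 CPM in aged LT-HSC and 50.03 ± 5.46 in aged ST-HSC (0.95), and at 289 ± 14.5 CPM in aged LT-HSC and 188 ± 26.4 in aged ST-HSC (0.62). Hk2, a hexokinase, was at 191, 264, 192 and 162 CPM in aged LT-HSC and 93.4, 67.5, 55.3 and 94.3 CPM in aged ST-HSC (1.38, adjusted p = 9e-06), while Hk3 was lower (-1.14). Pfkp and Pfkfb3, a phosphofructokinase and the enzyme that makes its activator, differed by 1.02 and 1.34, and Ldha, lactate dehydrogenase, was at 675 ± 42.7 CPM in aged LT-HSC and 393 ± 46.5 in aged ST-HSC (0.78). Oxidative phosphorylation, the respiratory chain and ATP synthase, was lower in 22 and higher in 1 of 76 tested nuclear genes, with small differences (median -0.27, none of 2-fold). Ndufa4 was at 82.04 ± 3.21 CPM in aged LT-HSC and 136 ± 16.6 in aged ST-HSC (-0.72), Cox5a differed by -0.69 and Atp5b by -0.38, while Sdha differed by 0.08 (adjusted p = 0.6). Without aged LT-HSC library 3, or without aged ST-HSC library 1, 14 members were lower. The TCA cycle had 8 lower and 1 higher of 22 (median -0.19), with Idh2 at 103 ± 8.21 CPM in aged LT-HSC and 180.3 ± 16.2 in aged ST-HSC (-0.81), and 5 were lower in a fit to only the groups compared, without aged LT-HSC library 3, or without aged ST-HSC library 4.

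Mitochondrial ribosomal proteins were lower in 14 and higher in 1 of 74 tested (median -0.27), the lower count near the background, and 6 were lower in a fit to only the groups compared. Genes of mitochondrial fission, fusion, import and quality control were below the background share, with 2 higher and 3 lower of 41 (median -0.06), and 5 were lower without aged LT-HSC library 1 or aged ST-HSC library 2. Park2, the mitophagy ligase parkin, was at 22.7 ± 3.197 CPM in aged LT-HSC and 7.504 ± 1.67 in aged ST-HSC (1.59, adjusted p = 3.7e-05). The fusion genes Mfn1 (0.17), Mfn2 (0.21) and Opa1 (-0.10), the biogenesis gene Ppargc1a (0.10) and the DNA packaging gene Tfam (-0.19) did not pass the test. Enzymes of one-carbon and serine metabolism, which feed nucleotide synthesis, were lower in 14 and higher in 2 of 24 (median -0.43). Mthfd2, the mitochondrial folate enzyme of dividing cells, stood at 1.45, 0.6098, 0.383 and 0.854 CPM in aged LT-HSC and 4.29, 12.8, 6.01 and 6.101 CPM in aged ST-HSC (-3.12, adjusted p = 5.4e-06). Phgdh, the entry enzyme of serine synthesis, was at 51.8 ± 2.196 CPM in aged LT-HSC and 90.2 ± 8.73 in aged ST-HSC (-0.80), and Tyms, thymidylate synthase, at 16.2 ± 4.26 CPM in aged LT-HSC and 40.3 ± 5.67 in aged ST-HSC (-1.31). Aminoacyl-tRNA synthetases had 1 higher and 9 lower of 36 (median -0.14). Cytosolic ribosomal proteins, many of whose reads also match pseudogenes, had 4 higher and 2 lower of 83 (median -0.01), below the background share. In a fit to only the groups compared 0 were higher and 0 lower, and leaving out 1 aged library gave 1 or 2 higher members without LT-HSC library 1, 2 or 3 or ST-HSC library 2, 3 or 4, and 4 lower members without ST-HSC library 3.

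Immediate early genes, whose transcription answers quickly to signals and to handling of cells, were higher in 10 and lower in 3 of 37 tested (median 0.30). The AP-1 genes Fos (0.11, adjusted p = 0.78) and Jun (-0.05, adjusted p = 0.92) and the factor Egr1 (0.63, adjusted p = 0.065) did not pass the test. Egr1 was called higher by DESeq2 (adjusted p = 0.04), by limma-voom (0.031), with a replicate block (1.4e-05) and without aged ST-HSC library 2 (0.038). Nr4a2, an orphan nuclear receptor, was at 335 ± 54.7 CPM in aged LT-HSC and 105 ± 9.84 in aged ST-HSC (1.68), Egr3 at 225 ± 73.4 CPM in aged LT-HSC and 79.3 ± 30.997 in aged ST-HSC (1.51), and Fosl2 at 207 ± 89.7 CPM in aged LT-HSC and 81.6 ± 23.01 in aged ST-HSC (1.34). Dusp6, an ERK phosphatase induced by growth factor signaling, was lower, at 90.3 ± 11.1 CPM in aged LT-HSC and 214 ± 31.1 in aged ST-HSC (-1.24, adjusted p = 2.5e-08). The CRE motif TGACGTC was found in 7 of 31 promoters of the list (22.6%) against 5.18% of tested genes, counting every listed start of a gene. With 1 start per gene it was found in 4 (12.9%) against 4.66%. The AP-1 motif TGANTCA was found at any start in 2 (6.45%) against 5.61%.

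MHC class II genes, which present antigen, were lower in 6 and higher in 0 (0 at an unadjusted p under 0.05 in edgeR, 0 by DESeq2, 0 by limma-voom) of 12 tested (median -0.75). H2-Ob, a subunit of the peptide-editing modulator, stood at 7.14, 11.1, 10.2 and 14.9 CPM in aged LT-HSC and 79.7, 90.5, 82.9 and 62.3 CPM in aged ST-HSC (-2.86, adjusted p = 4.9e-10). Ctss, the protease that trims the invariant chain, was at 4.25 ± 0.671 CPM in aged LT-HSC and 37.6 ± 23.8 in aged ST-HSC (-3.14), and Cd74, the invariant chain, at 155 ± 51.4 CPM in aged LT-HSC and 298 ± 149.7 in aged ST-HSC (adjusted p = 0.09; 0.049 without aged ST-HSC library 1). Genes of the interferon response had 8 higher and 7 lower of 49 (median 0.10), near the background in both directions. Ifitm3, an antiviral membrane protein, was at 497 ± 88.3 CPM in aged LT-HSC and 219 ± 40.9 in aged ST-HSC (1.18), and Ifih1, the RNA sensor MDA5, at 99.6 ± 4.52 CPM in aged LT-HSC and 56.5 ± 5.6 in aged ST-HSC (0.82). The peptide transporter genes Tap1 and Tap2 were lower (-0.46 and -0.66).

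Lysosome and autophagy genes were higher in 10 and lower in 7 of 44 tested (median -0.05), the lower count at the background, with 4 lower in a fit to only the groups compared. Gabarapl1, an autophagosome protein, was at 184 ± 8.73 CPM in aged LT-HSC and 94.4 ± 10.5 in aged ST-HSC (0.97), and Mcoln1, a cation channel of lysosomes, at 93.6 ± 4.41 CPM in aged LT-HSC and 57.4 ± 1.99 in aged ST-HSC (0.70). Npc1, the cholesterol exporter of lysosomes, was lower (-0.88). Chromatin regulators were lower in 15 and higher in 7 of 43 (median -0.16). The alternative Polycomb methyltransferases went opposite ways, with Ezh2 at 26.6, 28.1, 25.3 and 41.3 CPM in aged LT-HSC and 63.9, 72.7, 63.3 and 78.4 CPM in aged ST-HSC (-1.20, adjusted p = 9.2e-07) and Ezh1 at 248, 192, 219 and 173 CPM in aged LT-HSC and 91.2, 101, 113 and 101 CPM in aged ST-HSC (1.04, adjusted p = 1.9e-08). Among their reader subunits Cbx7 was higher (0.58) and Cbx2 lower (-1.44). The DNA demethylase Tet2 (0.03, adjusted p = 0.82) and the methyltransferase Dnmt3a (-0.17, adjusted p = 0.23) did not pass the test.

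Metallothioneins and antioxidant genes had 6 higher and 5 lower of 36 tested (median -0.03), near the background in both directions. Srxn1, which repairs peroxiredoxins, was at 45.1 ± 5.53 CPM in aged LT-HSC and 16.7 ± 1.55 in aged ST-HSC (1.43), and Txnip, the thioredoxin inhibitor, at 1654 ± 119.8 CPM in aged LT-HSC and 1064 ± 225 in aged ST-HSC (0.64). Gpx1, glutathione peroxidase 1, was lower, at 196 ± 20.4 CPM in aged LT-HSC and 393 ± 83.8 in aged ST-HSC (-1.004), and Sod1 differed by 0.001 (adjusted p = 1). The metal response motif, TGCACNC or TGCGCNC, was found in 31.2% of 32 promoters of the list and in 33.2% of tested genes. BCL2 family genes had 3 higher and 3 lower of 15 (median 0.04), near the background in both directions. The 3 higher members were Bcl2l1, Bcl2 and Mcl1, which favour survival, at differences of 0.98, 0.69 and 0.33. The 3 lower members were Bcl2l11 (BIM), Bid and Bak1, which favour death, at -1.14, -0.67 and -0.45. The other 9 tested members, of either kind, were not called. The Mcl1 call was lost without aged LT-HSC library 2, without aged ST-HSC library 3 or 4, and in a fit to only the groups compared. The Bak1 call was lost without LT-HSC library 3 or 4, without ST-HSC library 1 or 2, and without ST-HSC libraries 2 and 3 together. Endoplasmic reticulum folding and heat shock genes had 1 higher and 6 lower of 31 (median -0.15), and cholesterol synthesis genes 2 higher and 6 lower of 27 (median -0.05), with 3 lower without aged ST-HSC library 4 and 0 higher without ST-HSC libraries 2 and 3 together. Sdf2l1, an ER chaperone partner, was at 3.69 ± 0.417 CPM in aged LT-HSC and 19.003 ± 7.11 in aged ST-HSC (-2.36, adjusted p = 4e-07), with library 2 the highest of the ST-HSC libraries.

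The same difference was then read in young mice, to ask whether the distance between the populations changes with age. In young mice 1780 genes (12.5%) differed between LT-HSC and ST-HSC, 964 higher (6.79%) and 816 lower (5.74%) in LT-HSC. Of the 4582 genes called in aged mice 1456 were called the same way in young mice (31.8% of the aged calls and 81.8% of the young calls), and 7 were called in opposite directions. The difference itself changed with age in 575 genes (4.05%), becoming more positive in aged mice in 235 (1.65%) and more negative in 340 (2.39%). With DESeq2 944 genes passed, and without young LT-HSC library 3, 377 did.

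The 8 genes of smallest p that became more positive with age were led by Gpr183, an oxysterol receptor that guides immune cell position. It stood at 221, 176, 197 and 137 CPM in aged LT-HSC, 17.2, 16.5, 17.4 and 14.1 CPM in aged ST-HSC, 21.7, 15.3, 12.6 and 17.3 CPM in young LT-HSC and 16.5, 18.6, 15.5 and 17.7 CPM in young ST-HSC. The aged LT-HSC libraries stood apart from all other 12, and the log2 difference between populations was 3.49 in aged and -0.03 in young mice, a change of 3.52 (adjusted p = 1.7e-10). For Alcam, given above, LT-HSC were the higher population in aged mice (1.65) and the lower in young mice (-0.44, from 76.7 ± 14.2 CPM in young LT-HSC and 104 ± 3.82 in young ST-HSC), a change of 2.09 (adjusted p = 2.5e-08). Fyb, an adaptor of integrin activation, also turned, from -0.69 in young to 0.77 in aged mice (change 1.47, adjusted p = 4.8e-06). Pfkfb3 had no difference past the threshold in young mice (-0.13, adjusted p = 0.55), a change of 1.47 (adjusted p = 2.3e-06). The ectoenzyme gene Enpp5 was higher in LT-HSC at both ages (0.67 in young mice). The exocyst gene Exoc6b (0.39, adjusted p = 0.065) and the oxidation resistance gene Oxr1 (0.32, adjusted p = 0.063) did not pass the test in young mice. These 3 genes had changes of 1.73, 1.67 and 1.19 (adjusted p = 1.1e-06, 7.3e-06 and 4.5e-05). Vwf and Itgb3 also widened, by 1.32 and 1.62 (adjusted p = 0.021 and 0.019). Both of these calls were lost without aged ST-HSC libraries 2 and 3 together, and that of Itgb3 without young ST-HSC library 2.

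The 8 genes of smallest p that became more negative were Slc28a2, Kcna3, Rfc2, Umps, Sdf2l1, Ptpn7, Mlec and Nkg7. Slc28a2, a sodium-coupled nucleoside transporter, stood at 16.4 ± 4.04 CPM in aged LT-HSC and 81.8 ± 8.7 in aged ST-HSC, and at 46.1 ± 4.32 CPM in young LT-HSC and 62.6 ± 3.23 in young ST-HSC, a change of -1.87 (adjusted p = 4.9e-07). Kcna3, a voltage-gated potassium channel of lymphocytes, changed by -1.85 (adjusted p = 5.7e-07), from -1.18 in young to -3.03 in aged mice. Rfc2, a clamp loader subunit of replication, and Umps, which completes pyrimidine synthesis, changed by -1.18 and -1.18 (adjusted p = 2.6e-06 and 6.4e-06). Sdf2l1 turned from 0.79 to -2.36, a change of -3.15 (adjusted p = 1.5e-05). Ptpn7, a phosphatase of blood cells that acts on ERK, Mlec, an ER lectin, and Nkg7, a granule protein of cytotoxic cells, changed by -1.14, -0.79 and -3.000 (adjusted p = 1.7e-05, 1.7e-05 and 7.6e-05).

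Replication genes were then read by the same measure. Of the 52 S phase genes 30 became more negative with age and 0 more positive (0 at an unadjusted p under 0.05 in edgeR, 0 by DESeq2, 0 by limma-voom), and in young mice 0 were higher and 0 lower in LT-HSC by edgeR, against 6 and 0 at an unadjusted p under 0.05 (median 0.17 against -1.14 in aged mice). Mcm5, for which aged values are given above, was at 212, 359, 317 and 287 CPM in young LT-HSC and 333, 254, 182 and 306 CPM in ST-HSC of the same age (0.13, adjusted p = 0.78), and these groups overlapped. Its change was -1.98 (adjusted p = 0.00037), and those of Uhrf1 and Cdc6 were -2.26 and -2.48 (adjusted p = 0.0016 and 0.003). Of the 51 mitotic genes 1 became more negative, and 24 did without aged LT-HSC library 4. Mki67 was at 190.4 ± 58.1 CPM in young LT-HSC and 309 ± 71.9 in young ST-HSC, and its difference between ages was -1.28 (adjusted p = 0.16), against -1.81, past the threshold, without that library.

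Myeloid genes became more negative in 14 of 31 cases, and the number depended on single libraries. Mpo was at 682, 1.53, 3.86 and 0.533 CPM in young LT-HSC and 55.04, 54.5, 68.4 and 77.8 CPM in young ST-HSC, and its change was -12.56 (adjusted p = 0.0091). Young LT-HSC library 1 was the high library. Without it the Mpo change was -6.05 and did not pass the test, and 7 myeloid genes became more negative. Without aged ST-HSC libraries 2 and 3 together 9 did, and 3 in limma-voom. Leaving out aged LT-HSC library 2, the number was 8, and without young ST-HSC library 2 or 4 it was 9. Of 30 lymphoid priming genes 3 became more positive and 3 more negative (5 by DESeq2 and also without young LT-HSC library 1), and of 34 growth factor and cytokine receptors 1 and 3. Among single genes lower in LT-HSC, Flt3 changed by -1.12, Satb1 by -1.61 and Cd34 by -1.03 (adjusted p = 0.00091, 0.00012 and 4e-04). Of the 40 LT-HSC program genes 10 became more positive and 1 more negative. Vldlr, the VLDL receptor, was lower in young LT-HSC (-1.62) and did not pass the test in aged mice (0.03, adjusted p = 0.93), a change of 1.65 (adjusted p = 0.0042).

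**Figure D5:**
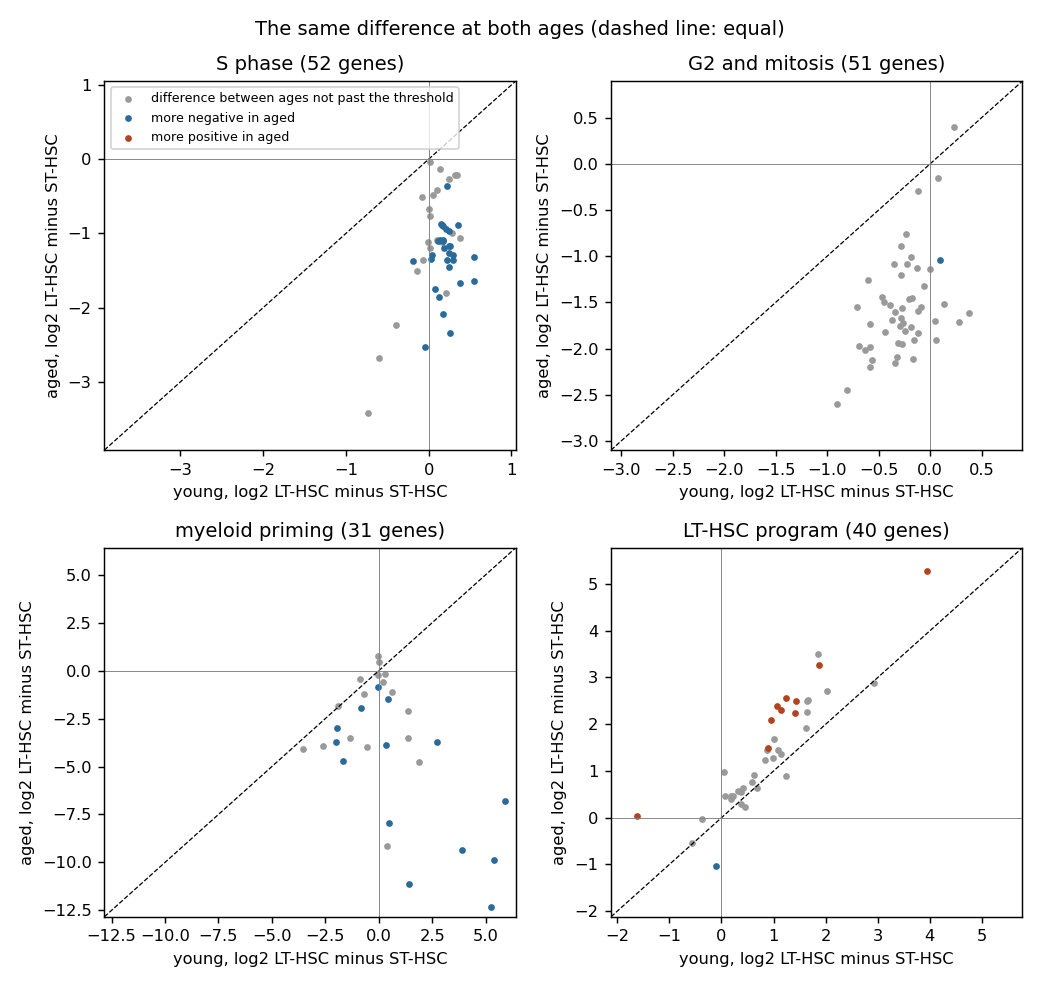
Each point is a gene of the list named above the panel, with its log2 difference of LT-HSC minus ST-HSC in young mice (x axis) and in aged mice (y axis), and the dashed line marks equal values. Of the S phase genes 30 are blue (more negative in aged mice) and cluster near 0 on the young axis and below 0 on the aged axis, while of the LT-HSC program genes 10 were more positive and 1 was more negative in aged mice.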

How the data were processed

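The deposited table holds read counts per gene symbol for 24 libraries, 1 column each, with no column left unused. The authors made these counts with Trim Galore, HISAT2 and featureCounts on mm10, per the submitters' processing notes. The notes name no version, and which annotation and strand option the counting used is not given in the sources used here. Per the labels' protocols, cDNA came from PrimeScript reverse transcription with not-so-random primers, Klenow fill-in and Nextera XT, a kit that marks neither strand nor molecules, so reads are not independent molecules and counting intervals (95%, exact) cover counting error only.

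Genes were kept by filterByExpr, which left 14205 of 24421 lines and 99.9% of counts, scaled by TMM and fitted with edgeR 4.0.16 (quasi-likelihood, robust) in R 4.3.3 to all 24 libraries in 6 groups (18 residual degrees of freedom). Contrasts were LT-HSC minus ST-HSC in aged mice, the same in young mice, and their difference. p-values were adjusted by Benjamini-Hochberg over all tested genes at 0.05. A gene without a count in 1 group was given a bound against a floor of 3 counts over the group. The depths of 7307151 to 12890638 counts set how low a level could be seen. edgeR was tested on simulated data.

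The members, gene lists and tests were chosen with earlier results of these data known. Named genes are those of the sort, up to 15 each way of largest difference (at least 10 CPM, no overlap), up to 8 each way of smallest p for the difference between ages (at least 5 CPM), and members of the lists. Predicted genes were passed over. A few genes named by this rule are not reported here. Coordinates are from GENCODE and promoters from RefSeq, both on GRCm38. Mitochondrially encoded genes were not analysed here, and 27 symbols turned into dates by a spreadsheet (at most 0.192% of counts) kept those names. Alternatives were RLE or no scaling factors, other count filters, DESeq2 1.42.0, limma-voom 3.58.1, a fit to only the groups compared, a replicate block, thinning, removal of 45S ribosomal RNA and hemoglobin genes, and leaving out libraries.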

Additional observations from a re-analysis of the deposited data

Results flagged for a closer look

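In 37 of 490 groups of 4 libraries 1 library lay far from the other 3, by Dixon's test of the gap to its nearest neighbour against the whole range (95% level). Chance gives about 1 such group in 20. In 8 of the 37 the other 3 libraries had no count, where any count at all stands apart and that rate does not apply. In aged LT-HSC library 1 the values that stood apart, high or low, were Bcl2l1 at 41.1 CPM, Bcl2l11 at 36.5 CPM, Cbx7 at 158 CPM, Cd33 at 0.121 CPM, Csf1r at 0.726 CPM, H19 at 5.81 CPM, Ly6c2 at 0.121 CPM, Nr4a1 at 1140 CPM and Pcna at 89.2 CPM. In aged LT-HSC library 2 the values that stood apart, high or low, were Cdt1 at 9.45 CPM, Grb10 at 308 CPM, Kdr at 38.8 CPM and Mycn at 358 CPM. In aged LT-HSC library 3 the values that stood apart, high or low, were Dhrs3 at 68.2 CPM, Dntt at 0.51 CPM, Ms4a3 at 0.255 CPM and Tgfb3 at 25.9 CPM. In aged LT-HSC library 4 the values that stood apart, high or low, were Jam2 at 56.3 CPM. In aged ST-HSC library 1 the values that stood apart, high or low, were Ghr at 5.8 CPM, H19 at 0.0794 CPM, Hoxb9 at 0.159 CPM, Ndn at 11.1 CPM and Tie1 at 291 CPM. In aged ST-HSC library 2 the values that stood apart, high or low, were Alas2 at 63.9 CPM, Cdkn1b at 111 CPM, Cdkn2c at 21.5 CPM, Gabarapl1 at 110 CPM, Ifitm3 at 280 CPM, Mcoln1 at 60.4 CPM and Sdf2l1 at 29.6 CPM. In aged ST-HSC library 3 the values that stood apart, high or low, were Ccbe1 at 0.4 CPM. In aged ST-HSC library 4 the values that stood apart, high or low, were Ctss at 73.1 CPM, Kcnb2 at 0.102 CPM, Pf4 at 21.3 CPM and Treml1 at 1.42 CPM. The B and plasma cell marker share (0.0391%) and the T and NK cell marker share (0.00699%) of aged ST-HSC library 4 also stood above the other 3 ST-HSC libraries.

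The difference between LT-HSC and ST-HSC changed with age, tested as the difference of differences in edgeR, for the named genes above that passed. It became more positive on the log2 scale for Alcam (2.09), Enpp5 (1.73), Exoc6b (1.67), Fyb (1.47), Gpr183 (3.52), Itgb3 (1.62), Oxr1 (1.19), Pfkfb3 (1.47), Vldlr (1.65) and Vwf (1.32). It became more negative for Cd34 (-1.03), Cdc6 (-2.48), Flt3 (-1.12), Kcna3 (-1.85), Mcm5 (-1.98), Mlec (-0.791), Mpo (-12.6), Nkg7 (-3), Ptpn7 (-1.14), Rfc2 (-1.18), Satb1 (-1.61), Sdf2l1 (-3.15), Slc28a2 (-1.87), Uhrf1 (-2.26) and Umps (-1.18).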

How the results depend on the processing

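The count of genes that differed between aged LT-HSC and aged ST-HSC stayed within 1.5 times of 4582 in every alternative run. Leaving out each aged library gave 4041 to 4616, with 2002 to 2220 higher and 2006 to 2396 lower, and 48.1% to 54.9% of calls were higher over the alternatives. Other scaling moved the median by at most 0.021 on the log2 scale. Of the 209 named genes called in aged mice 186 kept their call in every alternative, 23 lost it in at least 1, 10 of these by limma-voom alone, and 0 reversed. The count of genes whose difference changed with age was less stable: DESeq2 called 944 (401 more positive, 543 more negative). Leaving out 1 library gave 377 to 822, with 131 to 310 more positive and 246 to 556 more negative. The highest total and negative count were without aged ST-HSC library 3 and the lowest without young LT-HSC library 3. The more positive count was 153 without aged LT-HSC library 1 and 144 without library 2. It was 147 and 155 when young LT-HSC library 2 or 4 was left out, and 149 when young ST-HSC library 2 was. The cause was not tested.

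Libraries of both populations carry numbers 1 to 4, and the deviations of same-numbered aged libraries had correlations of 0.107, 0.0389, 0.198 and 0.134. Of these, library 2 did not correlate best with its own number. The young libraries had correlations of -0.0845, 0.194, 0.087 and 0.00464, and LT-HSC libraries 1 and 4 did not correlate best with their own number. No label ties them to a mouse, so the main fit assumes no pairing, and whether they share a mouse is not known. With the replicate block 4622 genes were called, and the Mpo and Vwf differences between ages did not pass. In aged mice Egr1 (adjusted p = 1.4e-05) and Nr4a1 (0.0051) were called with the block and Car1 (0.079) was not. Genes with no count in 1 population, such as Il7r in aged LT-HSC, have only a bound at this depth.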
